A study of Homo sapiens with 6 samples.

Results

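The RNAs described here are the uncharacterised loci of the table, genes whose symbol is LOC followed by digits. They were chosen by symbol and level, as rows of that form with a mean of at least 1 FPKM over the 6 libraries, FPKM being fragments scaled to gene length and library depth. LOC105374811, LOC107986236 and LOC105379273 were singled out in advance with their change in this contrast known, so their values and p are a description. The rule gave 117 loci among 3811 LOC rows and 22701 rows in all. LIG libraries 1 to 3 came from LX-2 cells given TGF-β and 20 µM ligustilide (LIG), a phthalide of Angelica and Ligusticum roots. TGFB libraries 1 to 3 came from LX-2 cells given TGF-β without LIG. LX-2 is an established line of human hepatic stellate cells, which deposit collagen when the liver scars. TGF-β, the cytokine that activates these cells, was thus present in both groups, at a labelled 5 µg/mL, and no library of cells without it was analysed here. Nothing in the labels tells whether replicates are separate cultures; p-values here measure the spread between libraries, which may be technical.

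LOC symbols are placeholders: NCBI Gene builds one from the gene's ID number when no name has been assigned. Most stand for long non-coding RNAs (lncRNAs), which are transcribed, usually spliced and polyadenylated like messenger RNA without encoding a known protein. Such RNAs are known for low levels and for lying beside, within or antisense to protein-coding genes. For most of them no function is established, and a gene model may cover a few short exons.

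By gene ID, 88 of the 117 loci had an entry in the RefSeq gene table of GRCh38.p14, and 29 had none. The entries were 80 lncRNAs, 7 protein-coding genes and 1 miscellaneous RNA. Of the 88, 25 had since received another symbol there: 10 end in an antisense suffix, 4 are divergent transcripts and 4 are LINC genes. The locus LOC105374811 is now TACR1-AS1, LOC107986820 is BET1-AS1 and LOC100506691 is LINC02985. The annotated span of 58 loci overlapped that of another gene, and 40 overlapped a protein-coding gene. Whether fragments were assigned by strand is not given in the sources used here, so reads of such loci cannot be told from those of a partner on the opposite strand.

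The promoters of the loci that passed the test and rest on many fragments are shown to compare the sequence around their annotated starts. Each runs from 250 bases before to 50 after the start, in RefSeq's table for GRCh38.p14, 5′ to 3′ on the gene's strand. The positions are chr2:75154068-75154367 (plus strand) for LOC105374811, chr6:52664151-52664450 (plus strand) for LOC730101 and chr22:27137950-27138249 (plus strand) for LOC107985534. Capitals mark a match to the letters of the TATA box (TATAAA) or the CCAAT box (CCAAT) on either strand. Whether a match works as such a box was not tested.
LOC105374811: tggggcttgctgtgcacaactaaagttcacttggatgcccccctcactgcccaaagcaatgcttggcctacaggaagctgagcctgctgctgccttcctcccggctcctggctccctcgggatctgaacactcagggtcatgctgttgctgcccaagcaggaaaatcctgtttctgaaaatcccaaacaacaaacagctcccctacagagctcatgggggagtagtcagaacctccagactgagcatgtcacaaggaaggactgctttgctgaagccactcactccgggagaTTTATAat
LOC730101: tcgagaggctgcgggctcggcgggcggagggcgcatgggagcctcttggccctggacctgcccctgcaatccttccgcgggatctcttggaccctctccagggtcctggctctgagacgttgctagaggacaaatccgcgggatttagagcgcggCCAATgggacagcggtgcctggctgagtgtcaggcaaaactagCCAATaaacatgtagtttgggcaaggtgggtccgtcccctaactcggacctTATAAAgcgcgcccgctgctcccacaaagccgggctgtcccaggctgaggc
LOC107985534: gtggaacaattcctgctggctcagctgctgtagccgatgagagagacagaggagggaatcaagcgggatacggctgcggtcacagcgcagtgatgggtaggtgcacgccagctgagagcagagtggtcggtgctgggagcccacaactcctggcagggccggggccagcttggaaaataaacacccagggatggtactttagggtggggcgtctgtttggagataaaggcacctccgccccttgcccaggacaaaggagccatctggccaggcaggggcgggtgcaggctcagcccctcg
The LOC730101 window holds a TATAAA match at its annotated start and a pair of CCAAT matches before it. The LOC105374811 window holds a TATAAA match on the opposite strand after the start, and the LOC107985534 window holds neither motif. Over both strands and any position, 12.0% of 27305 promoters of this length hold TATAAA, and 4 of the 70 LOC loci with a promoter in the table do. CCAAT is in 35.7% of all promoters and in 24 of those 70. None of these 3 windows holds the core of the antioxidant response element (TGACNNNGC), to which NRF2 binds, or the AP-1 motif (TGANTCA). TGACNNNGC is in 13.6% of all promoters and in 7 of the 70, and TGANTCA is in 7.76% of all promoters and likewise in 7 of the 70.

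With LIG, 2 of the 117 loci rose and 3 fell (4.27% in all). Of all 10695 genes tested 0.692% passed, 0.187% higher and 0.505% lower with LIG. LOC105374811, annotated antisense to the substance P receptor gene TACR1, rose, and so did the very short LOC107986236. LOC730101 on chromosome 6, LOC107985534 on chromosome 22 and LOC105379273 on chromosome Y fell. The other 112 did not pass. The count rests on single libraries and on the filter. Without LIG library 1, LIG library 2 or TGFB library 3, 1 locus passed, LOC105374811. Without a filter on level 0 of 3811 LOC rows passed (limma), and 158 (4.15%) had an unadjusted p under 0.05. Of all 22701 rows 14 passed in that fit, and 6.98% had an unadjusted p under 0.05. Of the 117 loci, 13 had a mean under 1 FPKM in 1 of the groups and were tested because the other group was higher. LOC105374811, LOC107985534 and LOC105379273 were among the 13. Both group means were at least 1 FPKM in 104 loci, of which LOC107986236 and LOC730101 passed. Over all genes tested, 5 of 122 (4.1%) passed with 1 group mean under 1 FPKM, and 69 of 10573 (0.653%) with both at least 1 FPKM. Since 3 of the 5 loci that passed were singled out on this contrast, nothing is read from these shares.

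LOC105374811 lies on chromosome 2 on the plus strand, and its model was 5307 bases long as implied by the FPKM values. It stood at 2.25, 2.40 and 2.76 FPKM in the LIG libraries, against 0.674, 0.874 and 0.638 FPKM in the TGFB libraries. The lowest LIG library was above the highest TGFB library, and the ratio of the group means was 3.39. The means were 2.47 ± 0.27 FPKM with LIG and 0.729 ± 0.13 FPKM with TGF-β alone (SD, n = 3 each). This is a log2 change of 1.01 ± 0.09 (SE) on the log2(FPKM + 1) scale, with an adjusted p of 0.00416 (limma, Benjamini-Hochberg over all 10695 genes tested, two-sided). The values correspond to 461, 490 and 576 fragments with LIG and to 138, 181 and 131 fragments with TGF-β alone. With 1 library left out the limma adjusted p ranged from 0.004 to 0.0451. Every TGFB library was under 1 FPKM, so the locus reached the filter through the LIG libraries alone, and these p are a description.

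TACR1, the gene on the minus strand that overlaps LOC105374811 (chromosome 2, 75046463 to 75199700 on GRCh38), had between 0 and 4 fragments in the 6 libraries. LOC107985900, an lncRNA that also overlaps it, had between 0 and 2. Both partners were thus at or near 0. The closest tested genes on the 2 sides, POLE4 at 184 and EVA1A at 213 kilobases, did not pass. POLE4, which encodes a subunit of DNA polymerase epsilon, averaged 26.0 ± 6.6 FPKM with LIG and 23.9 ± 2.01 FPKM with TGF-β alone (adjusted p = 0.958, limma). EVA1A, a regulator of autophagy, averaged 15.7 ± 1.64 FPKM with LIG and 13.7 ± 0.89 FPKM with TGF-β alone (adjusted p = 0.617, limma).

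LOC730101 had the highest level of the loci that passed. GENCODE release 29 places it on the plus strand of chromosome 6 from 52664366 to 52669155 (GRCh38) as a transcribed unprocessed pseudogene, while RefSeq lists an lncRNA. It stood at 12.4, 12.1 and 10.7 FPKM in the LIG libraries, against 18.0, 17.0 and 17.2 FPKM in the TGFB libraries. The groups were well apart, and the TGFB libraries lay close together. It fell to 11.7 ± 0.94 FPKM with LIG, against 17.4 ± 0.50 FPKM with TGF-β alone (SD, n = 3 each), a log2 change of -0.53 ± 0.07 (limma adjusted p = 0.0204). It had between 1583 and 2621 fragments per library. With 1 library left out it passed without LIG library 3 and missed without any other (limma adjusted p up to 0.142), and it missed on TPM. Its closest tested neighbour, TMEM14A, a transmembrane protein gene on the same strand, averaged 20.6 ± 1.01 FPKM with LIG and 19.9 ± 2.93 FPKM with TGF-β alone (adjusted p = 0.965, limma). TRAM2-AS1, the neighbour on the other side, averaged 1.94 ± 0.11 FPKM with LIG and 2.17 ± 0.20 FPKM with TGF-β alone (adjusted p = 0.802, limma).

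LOC107985534, an lncRNA of chromosome 22, stood at 0.768, 0.835 and 0.923 FPKM in the LIG libraries, against 1.70, 1.59 and 1.44 FPKM in the TGFB libraries. The groups did not overlap, and with LIG every library was below 1 FPKM. It fell to 0.842 ± 0.08 FPKM with LIG, against 1.58 ± 0.13 FPKM with TGF-β alone, a log2 change of -0.48 ± 0.07 (limma adjusted p = 0.0290). It had 86, 93 and 105 fragments with LIG and 190, 180 and 161 fragments with TGF-β alone. It reached the filter of 1 FPKM through the TGFB libraries alone. It too passed without LIG library 3 and missed without any other library (limma adjusted p up to 0.156).

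The closest tested neighbours of LOC107985534, LINC01638 at 72.1 and MIAT at 462 kilobases, are both lncRNAs. Both had lower values with LIG without passing, and in both the groups did not overlap, as in 15.8% of all genes tested. LINC01638 (chromosome 22, 27221349 to 27224727, minus strand) stood at 2.55, 1.82 and 2.43 FPKM in the LIG libraries, against 3.53, 3.62 and 3.78 FPKM in the TGFB libraries. The groups did not overlap (log2 change -0.51 ± 0.10, limma adjusted p = 0.0724). MIAT, an lncRNA first described for its association with myocardial infarction, stood at 2.01, 1.98 and 1.53 FPKM with LIG and at 3.34, 2.14 and 2.78 FPKM with TGF-β alone (log2 change -0.39 ± 0.13, limma adjusted p = 0.366).

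The other 2 loci that passed rest on few fragments. LOC107986236, with an implied length of 198 bases, stood at 2.74, 3.16 and 2.83 FPKM in the LIG libraries, against 0.786, 1.42 and 1.04 FPKM in the TGFB libraries. These values are 21, 24 and 22 fragments with LIG and 6, 11 and 8 fragments with TGF-β alone. The sums are 67 fragments with LIG (exact Poisson 95% interval 51.9 to 85.1) and 25 fragments with TGF-β alone (16.2 to 36.9). It rose by a log2 change of 0.92 ± 0.11 (limma adjusted p = 0.0140), and missed without LIG library 1, LIG library 2 or TGFB library 3 (up to 0.0856).

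LOC105379273 is annotated as an lncRNA of chromosome Y, and its implied length is 129 bases. It stood at 1.00, 1.01 and 0.790 FPKM in the LIG libraries, against 2.81, 1.99 and 3.00 FPKM in the TGFB libraries. These values are 5, 5 and 4 fragments with LIG and 14, 10 and 15 fragments with TGF-β alone. The sums are 14 fragments with LIG (exact Poisson 95% interval 7.65 to 23.5) and 39 fragments with TGF-β alone (27.7 to 53.3). The log2 change was -0.89 ± 0.12 (limma adjusted p = 0.0169). Its mean with LIG was under the filter of 1 FPKM, which it reached through the TGFB libraries, where it was high. It passed without LIG library 3 or TGFB library 2 and missed without any other library (limma adjusted p up to 0.0954). Its closest tested neighbours, RPS4Y1 and DDX3Y, lie 8340 and 1690 kilobases away and did not pass (adjusted p = 0.873 and 0.616, limma). The RPS4Y1 groups overlapped. DDX3Y was lower with LIG without overlap, at 1.16 ± 0.07 FPKM against 1.40 ± 0.13 FPKM with TGF-β alone. Tested on the recovered fragments with limma voom, LOC107986236 and LOC105379273 missed the threshold (adjusted p = 0.103 and 0.135), and the other 3 loci passed. Intervals cover counting error alone.

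**Figure D1:**
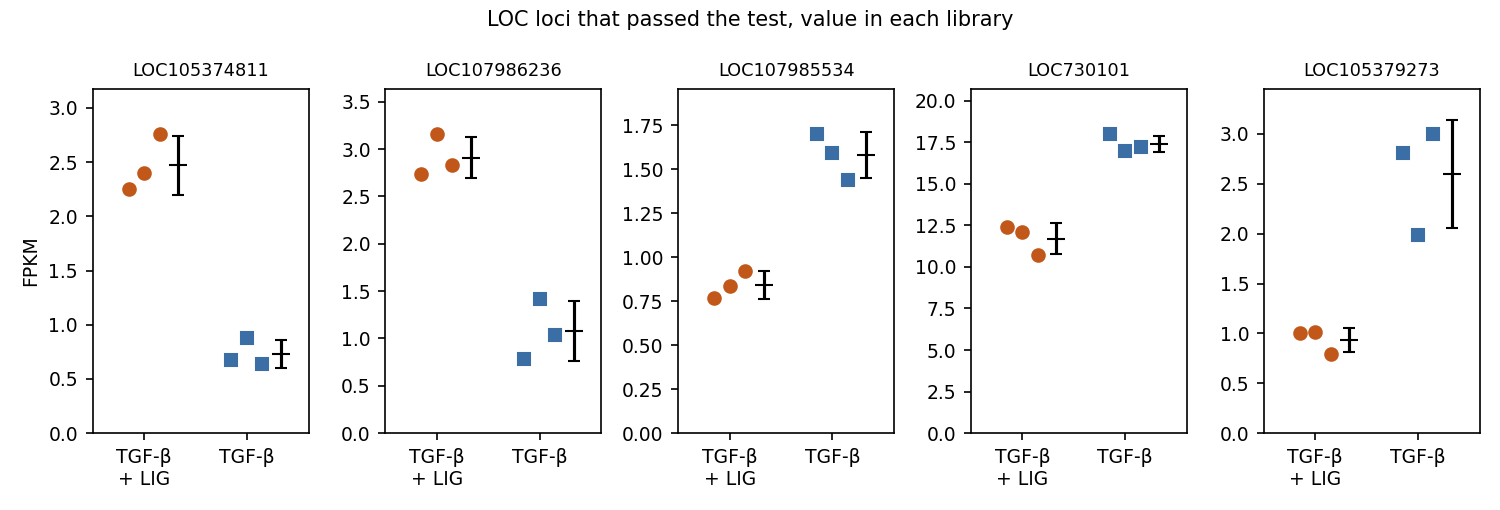
FPKM (vertical axes, from 0, a scale per panel) of the 5 LOC loci that passed, with cells given TGF-β and LIG at the left of each panel (circles) and cells given TGF-β alone at the right (squares). Points are libraries and bars the mean ± SD of 3; LOC105374811 and LOC107986236 are higher with LIG, the other 3 lower, and no pair of groups overlaps.

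As a group the 117 loci did not shift to one side. Their median log2 change was 0.00, with 59 above 0 and 58 below 0, against a median of 0.03 over all 10695 genes tested. Groups did not overlap in 14 loci (12.0%), 7 higher and 7 lower with LIG, against 15.8% of all genes tested. Without adjustment 18 of the 117 had a p under 0.05 (15.4%), against 8.41% of all genes tested. Without a filter on level the order was reversed, with 4.15% of LOC rows against 6.98% of all rows (limma). Since 3 of the 5 that passed were singled out on this contrast, nothing is read from the share that passed or from the unadjusted share. Named lncRNAs at the same level threshold (LINC, antisense, divergent and host genes; 227) had 2 that passed and a median log2 change of 0.00.

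**Figure D2:**
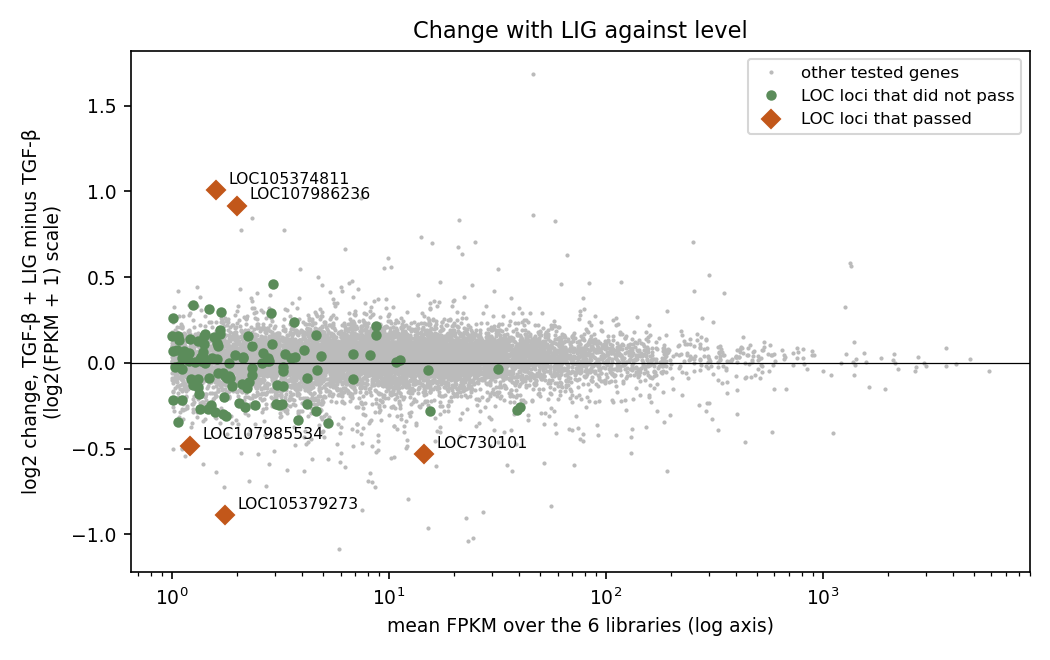
Log2 change with LIG (vertical axis, log2(FPKM + 1) scale) against mean FPKM over the 6 libraries (log axis) for LOC loci that passed (diamonds), LOC loci that did not (circles) and the other tested genes (dots). Most LOC loci sit at the low end of the level axis, with 64 of 117 under 2 FPKM and the 5 that passed labelled.

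Of the 9 other loci whose groups did not overlap, 5 were higher with LIG and 4 lower, and none of the 9 passed. LOC107986820, now BET1-AS1 and antisense to the vesicle transport gene BET1, was nearest to passing. It stood between 1.36 and 1.69 FPKM in the LIG libraries, against 0.983, 0.972 and 1.01 FPKM in the TGFB libraries (log2 change 0.34 ± 0.07, limma adjusted p = 0.118). The remaining higher ones were LOC101928228 (LINC03070), LOC112268269 (ABHD16B-AS1), LOC100287387 and LOC102723663, with log2 changes from 0.16 to 0.30. LOC102723663, whose span overlaps the histamine receptor gene HRH1, averaged 4.91 ± 0.23 FPKM with LIG and 4.29 ± 0.29 FPKM with TGF-β alone. The lower ones were LOC102723983, LOC101927476 (LINC03099), LOC100506691 (LINC02985) and LOC107984316, with log2 changes from -0.29 to -0.18. LOC100506691 stood at 2.97, 2.86 and 2.76 FPKM in the LIG libraries, against 3.68, 3.60 and 3.41 FPKM in the TGFB libraries (limma adjusted p = 0.262). Its spread within groups was small, and its fragments ranged from 88 to 115 per library.

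The levels of the 117 loci ranged from just above 1 FPKM to 40.2 FPKM, with a median of 1.83 FPKM against 8.89 FPKM over all genes tested. Together they summed to 414, 427 and 425 FPKM in the LIG libraries, against 451, 449 and 444 FPKM in the TGFB libraries. All 3 LIG sums were below the TGFB sums; no test was made of this sum, and its 3 most abundant loci made up 24.4 to 24.6% of it with LIG and 26.1 to 27.3% with TGF-β alone. As a share of each library's fragments the loci held 0.0868, 0.0878 and 0.0819% with LIG, against 0.0921, 0.0865 and 0.0908% with TGF-β alone, which overlap.

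The most abundant, LOC728392, is a protein-coding gene of chromosome 17. It stood at 33.7, 33.4 and 42.8 FPKM in the LIG libraries, against 41.0, 47.5 and 42.8 FPKM in the TGFB libraries (log2 change -0.26 ± 0.11, limma adjusted p = 0.562). LIG library 3 reached the level of the TGFB libraries. The annotated span of LOC728392 overlaps that of another LOC gene. LOC105370924, a short lncRNA model of 408 bases on chromosome 15, averaged 35.0 ± 4.70 FPKM with LIG and 42.7 ± 5.85 FPKM with TGF-β alone (limma adjusted p = 0.592). LOC105374715 on chromosome 5 was steadier, at 31.6 ± 1.30 FPKM with LIG and 32.5 ± 0.66 FPKM with TGF-β alone (limma adjusted p = 0.956). LOC105372401 on chromosome 19, whose span overlaps HNRNPUL1, stayed between 11.0 and 11.5 FPKM in the 6 libraries. LOC101060400 averaged 14.9 ± 0.19 FPKM with LIG and 15.4 ± 0.90 FPKM with TGF-β alone. LOC107987206 ranged more widely, from 6.99 to 14.0 FPKM within the LIG libraries.

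At the threshold, the members with the lowest mean were LOC107985997, LOC101928796 and LOC644656 at 1.004, 1.011 and 1.015 FPKM. Just below it and not included were LOC100288798, LOC101928076 and LOC100289230 at 0.983, 0.976 and 0.973 FPKM. The rows on the 2 sides had similar support, with 20 to 69 fragments per library inside and 21 to 81 outside.

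The loci rested on fewer fragments than most genes. A LOC locus held a median of 120 fragments per library, against 1498 over all genes tested, and had a median implied length of 1503 bases against 4058. A mean under 30 fragments per library was found in 9 of the 117 (7.69%), against 0.29% of all genes tested. Those 9 had a median length of 310 bases, and 2 of them (22.2%), LOC107986236 and LOC105379273, were among the 5 that passed. Both had been singled out in advance on this contrast. Of all tested genes under 30 fragments 2 of 31 passed (6.45%), which are these same 2. Those 2 had the fewest, with 6 to 24 and 4 to 15 fragments per library. Next came LOC105377769 (now TRIM7-AS2, 9 to 29), LOC112267864 (10 to 23) and LOC105372632 (16 to 43), which did not pass. Of the 108 loci with at least 30 fragments on average, 3 passed (2.78%), against 0.675% of the 10664 tested genes at that fragment level. These were LOC105374811, LOC107985534 and LOC730101. LOC105374811 had been singled out on this contrast, and it and LOC107985534 reached the filter through their higher group alone. Nothing is therefore read from this share.

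**Figure D3:**
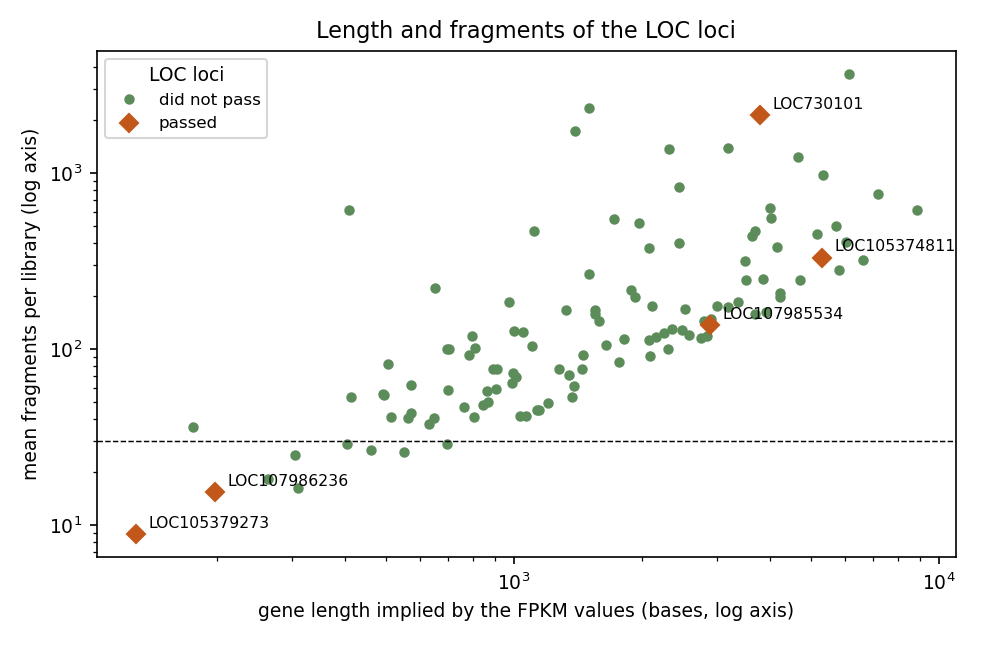
Mean fragments per library (vertical log axis) against gene length in bases implied by the FPKM values (horizontal log axis) for the 117 LOC loci; the dashed line is 30 fragments. Of the 5 loci that passed (diamonds), 2 lie below the line at the short end, with 129 and 198 bases.

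Spread within groups was larger for these loci than for most genes on the log scale, and nearer to counting error. The median SD of log2(FPKM + 1) within groups was 0.17, against 0.10 over all genes tested. The variance of fragments within groups was a median of 3.8 times that of counting alone, against 8.35 times over all genes tested, which hold more fragments. LOC107986236 and LOC105379273 stood at 0.427 and 0.324 times, below counting error, and LOC107985534 at 1.03 times. LOC105374811 and LOC730101 stood at 5.23 and 6.66 times.

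Some loci differed between libraries more than between groups. On the first principal component of all genes (55.1% of the variance), LIG library 3 and TGFB library 2 stood apart from the other 4. Both were above the other 4 in 14 of the 117 loci and below them in 14 more, in all 23.9%, against 46.0% of all genes tested. LOC101928451 stood at 5.52, 5.40 and 1.72 FPKM in the LIG libraries, against 4.66, 1.63 and 5.52 FPKM in the TGFB libraries. LOC151760, the locus with the most fragments (2241 to 4358 per library), stood at 16.7, 16.0 and 9.30 FPKM with LIG and at 18.4, 14.4 and 17.8 FPKM with TGF-β alone (limma adjusted p = 0.810). LOC107986558, now TGILR, stood at 3.36, 3.11 and 1.82 FPKM with LIG and at 4.42, 2.17 and 3.94 FPKM with TGF-β alone. In each, LIG library 3 and TGFB library 2 were the lowest of their groups; LOC101928451 and LOC107986558 were chosen after their values were seen. None of the 5 loci that passed could be among the 28, since their groups do not overlap, so nothing is read from their absence.

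With LIG library 3 and TGFB library 2 left out together, a setting chosen after seeing the data, 10 of the 117 loci passed, against 4.65% of all genes tested. The 5 loci were among the 10 and kept their direction, with log2 changes of 1.01 for LOC105374811, 1.05 for LOC107986236, -0.49 for LOC730101, -0.51 for LOC107985534 and -0.96 for LOC105379273. The further 5 were LOC102724023 and LOC107986820 (higher with LIG, log2 changes 0.36 and 0.38) and LOC107984529, LOC107985020 and LOC728392 (lower, -0.40, -0.51 and -0.31). On all 6 libraries LOC102724023 had a log2 change of -0.07 (limma adjusted p = 0.986), with TGFB library 2 its highest at 4.74 FPKM. LOC107986820 averaged 0.99 FPKM with TGF-β alone, and LOC107984529 averaged 0.816 FPKM with LIG. Both reached the filter through their other group alone. LOC107984529 also averaged only 28.8 fragments per library. LOC107985020 stood at 2.77, 2.69 and 4.42 FPKM in the LIG libraries, against 4.44, 4.39 and 4.16 FPKM in the TGFB libraries, so that LIG library 3 alone of its group lay at the TGFB level.

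**Figure D4:**
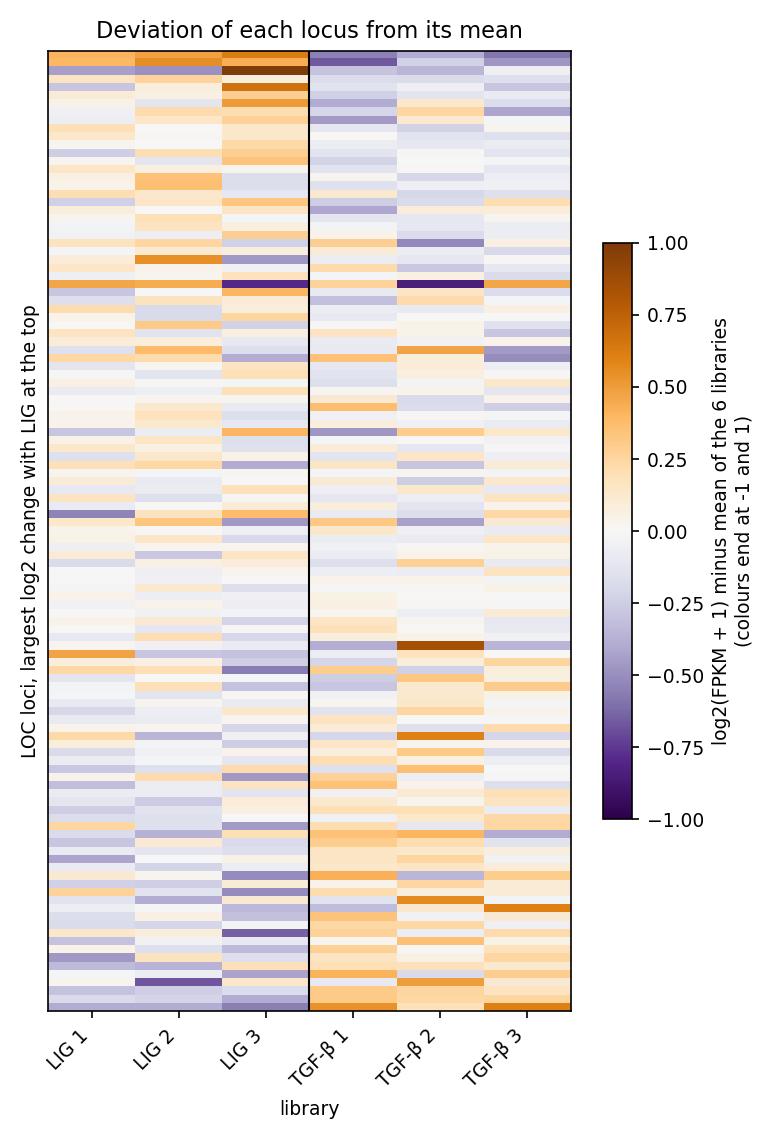
Deviation of log2(FPKM + 1) of each of the 117 LOC loci (rows, largest log2 change with LIG at the top) from its mean over the 6 libraries (columns, LIG left of TGF-β alone). The outermost rows at each end are the loci that passed. Rows in which LIG 3 and TGF-β 2 deviate together lie among the others, such as LOC101928451, and LOC105371722 near the bottom.

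Among the protein-coding members, LOC102724594 and LOC102724023 each had 1 library far above the rest. LOC102724594, named U2AF1L5 in GENCODE release 29 and a copy of the splicing factor gene U2AF1 on chromosome 21, stood at 1.46, 1.38 and 9.20 FPKM in the LIG libraries, against 1.72, 1.62 and 2.22 FPKM in the TGFB libraries. LIG library 3 was thus several times above the rest. U2AF1 itself stood at 2.76, 2.40 and 3.32 FPKM with LIG and at 0.912, 2.53 and 0.644 FPKM with TGF-β alone, and their sum was 4.21, 3.78 and 12.5 FPKM with LIG and 2.63, 4.14 and 2.86 FPKM with TGF-β alone. LOC102724023, named GATD3B there and a copy of GATD3, stood at 2.24, 2.09 and 2.01 FPKM with LIG and at 1.44, 4.74 and 1.48 FPKM with TGF-β alone. GATD3 itself stood at 1.89, 2.69 and 2.46 FPKM with LIG and at 2.09, 2.54 and 1.72 FPKM with TGF-β alone. The sum of this pair was 4.12, 4.78 and 4.47 FPKM with LIG and 3.53, 7.28 and 3.2 FPKM with TGF-β alone. In each pair the sum was still highest in the library where the LOC locus was highest. Near-identical copies share reads, so the split between members of each pair is uncertain, and these 2 loci were chosen after their values were seen. None of the 7 protein-coding members passed with limma on the 6 libraries or with limma voom, and 1 had an unadjusted p under 0.05 in each. Over all genes tested 0.692% passed and 8.41% had an unadjusted p under 0.05 with limma, and with so few members nothing is read from these counts.

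For the 88 loci with an entry in the gene table, the nearest tested gene was also compared; in 26 pairs the spans overlap. None of these nearest genes, 86 in number, passed; 5 had an unadjusted p under 0.05 with limma (5.81%, against 8.41% of all genes tested). With limma voom none passed and 6 had an unadjusted p under 0.05 (6.98%, against 8.27%). Across the 88 pairs, which share libraries and depth, the log2 change of the locus and that of its nearest gene had a Pearson r of 0.29 and a Spearman rho of 0.20, and 48 pairs had the same sign. LOC102724023 and LOC102724159, LOC648987 and LOC100506639, and LOC642846 and LOC728715 were each other's nearest gene and were counted from both sides. POLE4 and LOC102724159 were each nearest to more than a single locus, so the pairs are not independent.

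The libraries were of nearly equal depth, between 38401783 and 39260090 fragments. Of 13 stellate cell or fibroblast markers, 10 had a mean of at least 1 FPKM and VIM was the highest at 1852 FPKM, while DES, PDGFRA and LRAT were not among the 10. Summed, these markers stood at 3019 to 3378 FPKM with LIG and at 3448 to 3608 FPKM with TGF-β alone. Of the markers of other cells, SERPINA1 (3.88 FPKM), KRT7 (1.68 FPKM) and CD68 (13.7 FPKM) were at or above 1 FPKM, and EPCAM, VWF, CDH5, PTPRC, CD163 and CD3E were under 0.1 FPKM. Endothelial markers summed to 0.171 to 0.239 FPKM with LIG and 0.216 to 0.338 FPKM with TGF-β alone. The part of these differences in the results was not tested.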

How the data were processed

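RNA of LX-2 cells was extracted with TRIzol and made into 6 polyA libraries (VAHTS Universal V6), as the labels' protocols state. FPKM values, a column for each library, are what the authors deposited. Tools named without a role in the submitters' processing notes are fastp, HISAT2 2.1.0 and DESeq2, with the build GRCh38.p13; which program counted fragments, on which annotation and whether by strand is not given in the sources used here.

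The 10695 genes with a mean of at least 1 FPKM entered a limma 3.58.1 fit of log2(FPKM + 1) (group as the term, mean-variance trend, Benjamini-Hochberg at 0.05, 4 residual and 4.1 prior degrees of freedom). This scale understates changes of low genes. A design of 3 against 3 libraries cannot reach 0.05 in an exact permutation test, so no single locus was tested that way. No p was adjusted over the LOC loci alone.

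Within each row FPKM values are whole multiples of a step, which gave fragments and gene lengths for 22701 of 22701 rows. In tested genes 100% of 64170 values, and 702 of 702 values of the LOC loci, were whole within 0.01. The search for the step used this same tolerance, so these shares are no independent check of it. Fragments are the smallest whole numbers that fit, times a common factor in 462 rows whose implied length was otherwise not whole; none of the LOC loci needed one. Intervals and depth cover counting error alone.

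Loci were named by a rule: the 3 given ones, those that passed, their closest tested genes, the 8 largest changes each way without overlap, the 8 highest, the 5 with the fewest fragments, and those at the threshold; 7 changes each way met it. The members, lists and tests were chosen with earlier results of these data known. Replicate numbers did not pair the libraries. The limma steps were run on simulated data as a check of the code. These had the same spread setting for every gene and no pattern shared by LIG library 3 and TGFB library 2. Nothing about the loci that passed is read from them. Coordinates are from GENCODE release 29 and RefSeq's promoter table. Software was matplotlib 3.10.9, scipy 1.17.1, R 4.3.3, pandas 2.3.3, Python 3.11.15 and numpy 2.4.6.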

Additional observations from a re-analysis of the deposited data

How the results depend on the processing

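The 5 LOC loci that passed kept their direction in every alternative fit that included them, which is no sign of stability, since their groups do not overlap. With pseudocounts 0.1 and 0.5, quantile normalization, median centring, no trend or robust estimation 5 loci passed, and 4 with TPM. In these fits 63 (robust estimation) to 107 (quantile normalization) of all 10695 genes passed, and 86 with TPM. Without a filter on level 0 of 3811 LOC rows passed (limma), against 14 of 22701 genes, and LOC105374811 had an adjusted p of 0.0508. In that fit 158 LOC rows (4.15%) had an unadjusted p under 0.05, against 6.98% of all rows. The number that passed was 1 of 14 at a mean FPKM of at least 5, against 64 of 7127 genes. It was 3 with limma voom, against 77 of 10695 genes, and 3 of the 108 with at least 30 fragments, against 72 of 10664. With settings chosen after seeing the data it was 10 without TGFB replicate 2 and LIG replicate 3 (497 genes) and 12 with summed FPKM as a covariate (760 genes). Leaving out 1 library gave 1 to 6 LOC loci and 11 to 93 genes, against 5 and 74; 1 locus (LOC105374811) passed without LIG replicate 1, LIG replicate 2 or TGFB replicate 3, 2 without TGFB replicate 1 and 3 without TGFB replicate 2. LOC105374811 passed in 6 of these 6 fits, LOC107986236 in 3 (adjusted p up to 0.0856, limma), LOC105379273 in 2 (up to 0.0954), LOC730101 in 1 (up to 0.142) and LOC107985534 in 1 (up to 0.156). The median log2 change of the loci stayed between -0.04 and 0.001 (-0.04 at a mean FPKM of at least 5; -0.038 to -0.004 with 1 library left out). With the replicate number as a block 2 loci (LOC105374811 and LOC107986236) and 22 genes passed; same-numbered libraries deviated with correlations of 0.47, -0.57 and -0.34 across genes, so the numbers did not pair them. Few fragments limit the short loci.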
